A study of Mus musculus with 2 samples.

Results

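Proximal tubule S2-like nuclei were described here in single-nucleus RNA sequencing of mouse kidney, and a kidney that had undergone 5/6 nephrectomy was compared with a sham-operated one. A barcode was kept with at least 2000 unique molecular identifiers (UMIs, each standing for 1 captured RNA molecule) and at most 10% mitochondrial UMIs. It was called proximal tubule when Lrp2, Cubn, Slc34a1, Slc13a1 and Slc13a3 together gave at least 0.5% of its UMIs. It was then called S2-like when Slco1a6 and Slc22a6 had at least as many UMIs as Slc5a12, Slc5a2, Nox4 and Slc7a7 of the S1 segment, and when Cyp7b1 and Ctnna2 of the S3 segment did not outnumber Slc34a1, Slc22a6 and Slc5a12. This gave 493 S2-like nuclei among 2103 proximal tubule nuclei and 6383 barcodes, of which 211 were in the nephrectomy library and 282 in the sham library.

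Both groups were male T1+/+ mice, operated on at 11 weeks of age, and kidney was collected 4 weeks after surgery and frozen. In the nephrectomy mice the right kidney was removed and, after an interval, both poles of the left kidney were tied off, so that the library came from a remnant. Sham mice had both flanks opened and the kidneys exposed. Each group was 1 library on the 10x Genomics Chromium system. The number of mice per library and the part of the kidney taken are not given in the labels, and the share of a segment depends on the part taken. With 1 library in each group no test across animals was possible, and the intervals printed here are 95% intervals for counting error only.

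The proximal tubule reabsorbs most of what the glomerulus filters, and its cells run on mitochondrial and peroxisomal fatty acid oxidation. Its S1 segment takes up glucose, amino acids and bicarbonate at high capacity. The S2 segment is the main site of organic anion secretion, through basolateral uptake carriers such as OAT1, the product of Slc22a6. The S3 segment carries high-affinity transporters, and in mice its genes differ strongly between the sexes. When nephrons are lost, the remaining tubules enlarge and take over more filtrate each.

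S2-like nuclei made up 18.9% of the proximal tubule nuclei of the nephrectomy library (16.6 to 21.3, exact Clopper-Pearson interval; 211 of 1118) and 28.6% of those of the sham library (25.8 to 31.6; 282 of 985). The difference was -9.76 percentage points (-13.4 to -6.12). Nuclei that passed the proximal tubule limit but failed the first segment condition, called the S1 side here, numbered 899 in the nephrectomy library and 685 in the sham library. The S3 side, failing the second condition, held only 7 and 14 nuclei, and 1 and 4 nuclei failed both. The share of S2-like nuclei is set by the genes of the rule, so it is a description of these libraries under that rule.

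The members differed in how far they sat from the S1 boundary. The S2 share of a nucleus, which is its UMIs of Slco1a6 and Slc22a6 over those plus the 4 S1 genes, had a median of 66.7% in nephrectomy members (quartiles 58.4 and 75.2) and 75% in sham members (63.8 and 84.7). In the nephrectomy library 84 members lay within 5 UMIs of the boundary inside it and 80 nuclei within 5 UMIs outside it. In the sham library these numbers were 69 and 72. Ties kept 15 nephrectomy and 12 sham nuclei inside. Among the sham members 3 held no UMI of Slco1a6, Slc22a6 or the 4 S1 genes, so they have no S2 share.

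**Figure D1:**
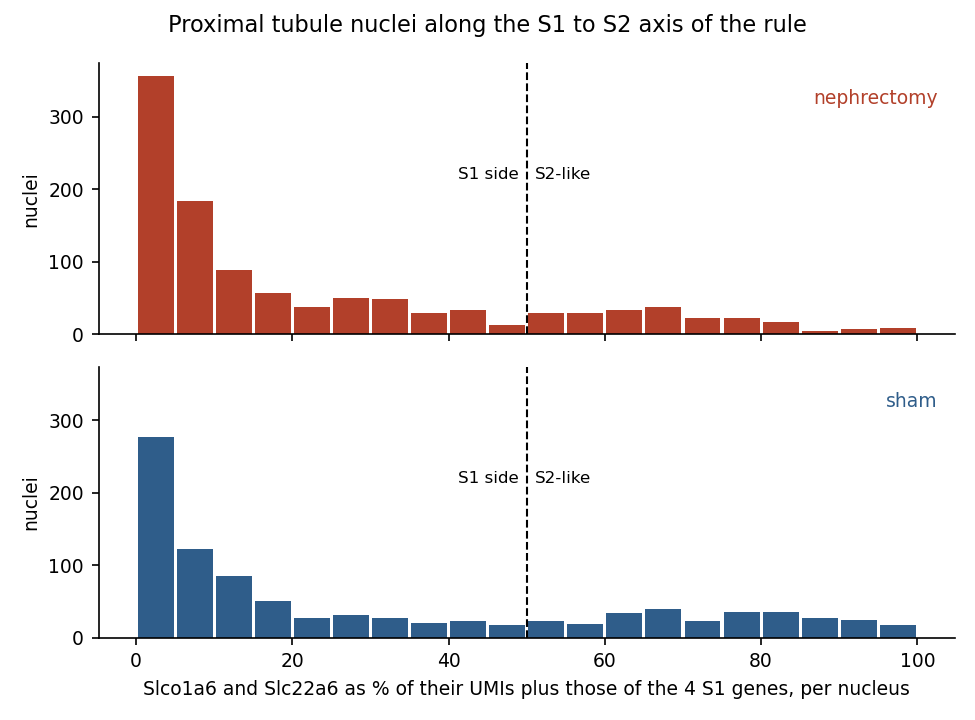
Number of proximal tubule nuclei by their S2 share, the percentage of Slco1a6 and Slc22a6 UMIs among those and the UMIs of 4 S1 genes, in bins of 5 points, for the nephrectomy library (top) and the sham library (bottom). The dashed line is the boundary of the rule, and the 3 sham members with no UMI of these genes are not drawn. Most nuclei of both libraries sit below 20%, and from 80% upwards the nephrectomy library holds 36 nuclei and the sham library 104.

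Of the genes that chose the members, Slc34a1, the main renal phosphate cotransporter, had 3798 UMIs per 1000000 (CPM, of all UMIs summed over the members) in nephrectomy nuclei and 4077 CPM in sham nuclei. Slco1a6, an organic anion transporting polypeptide, had 1713 CPM in nephrectomy nuclei and 1554 CPM in sham nuclei. Slc22a6 had 260.0 CPM in nephrectomy nuclei and 387 CPM in sham nuclei. Slco1a6 and Slc34a1 were close between the libraries, and Slc22a6 was lower after nephrectomy, with a ratio of 0.672. Slc13a1 (chromosome 6, 24088283 to 24168092 of GRCm38), the sodium sulfate cotransporter, was higher, at 3030.4 CPM in nephrectomy nuclei and 1293 CPM in sham nuclei, a ratio of 2.34. Lrp2, which codes for the endocytic receptor megalin, was lower, at 1126 CPM in nephrectomy nuclei and 2246 CPM in sham nuclei. Slc13a1 and Lrp2 moved alike on the S1 side, with ratios of 2.58 and 0.585. Ratios are nephrectomy over sham throughout, and those of the 13 genes of the rule are given as a description.

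The label was checked against segment markers that the rule did not use. Of 12 further S2 genes, 11 were higher in S2-like nuclei than on the S1 side of the nephrectomy library and 10 in the sham library, with a median S2-like level of 1.56 and 1.64 times that of the S1 side. Of 11 further S1 genes, 3 were higher in S2-like nuclei in each library. S3 genes were also higher in S2-like nuclei, 12 of 15 in the nephrectomy library and 14 of 15 in the sham library, and their median of 2.25 and 2.53 times the S1 side was above that of the S2 genes. In sham nuclei Slc7a13, the aspartate and glutamate transporter AGT1 of the S3 segment, had 1160.3 CPM in S2-like nuclei, 187 CPM on the S1 side and 2126 CPM in the 14 nuclei of the S3 side. The rule thus collected nuclei with S2 and S3 genes together, apart from S1, and S2-like is used here in that sense. Markers of another kidney cell type reached 0.2% of UMIs in 15 nephrectomy and 23 sham members, and values without these nuclei are given where they matter.

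Members had a median of 11441 UMIs in the nephrectomy library and 10842 in the sham library, with 2584475 and 3361184 UMIs in total. Free RNA was gauged in thick ascending limb nuclei (351 nephrectomy, 368 sham; median 7334 and 6285.5 UMIs), which should lack proximal tubule transcripts. They gauge free RNA only for genes that they do not transcribe themselves, and which genes these are was not tested. Where their share lies above that of S2-like nuclei of the same library, it gives no background for the S2-like share. Shares of nuclei with a UMI were taken after each nucleus was thinned to 2000 UMIs. Kap, the androgen-regulated kidney protein that is abundant in male proximal tubule, had a UMI in 87.2% of nephrectomy and 100% of sham S2-like nuclei. Thick ascending limb nuclei reached 62.4% and 95.9%, so a Kap UMI alone says little of a nucleus. Slc5a12 had a UMI in 12.8% of nephrectomy and 5.67% of sham S2-like nuclei, below the 17.9% and 9.51% of thick ascending limb nuclei, and nothing is drawn from its ratio of 2.17, which the rule also limits. Endothelial markers summed to 182 CPM in nephrectomy members and 84.8 CPM in sham members, with 178 of 471 and 61 of 285 UMIs in 1 nucleus. Thick ascending limb markers summed to 486 and 655 CPM, thin limb markers to 22.4 and 25.3 CPM and podocyte markers to 25.5 and 19.3 CPM, in nephrectomy and sham members. Of 8 markers of injured tubule, 5 had few UMIs in nephrectomy and sham members, with 3 and 3 of Havcr1 (KIM-1), 4 and 1 of Vcam1, 4 and 3 of Sox9, and 2 and 0 of both Krt20 and Lcn2. Clu had 21 UMIs in each library, Dcdc2a 62 in 40 nephrectomy nuclei and 57 in 43 sham nuclei, and Spp1, described further on, 592 and 278.

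Across 11753 genes with at least 20 UMIs over both libraries, 673 (5.73%) were at least 2-fold higher and 527 (4.48%) at least 2-fold lower in nephrectomy S2-like nuclei. With at least 100 UMIs these numbers were 229 (3.03%) and 193 (2.56%) of 7551 genes. The median log2 ratio over all 11753 genes was 0.05. Among the well-counted genes, the highest ratios included those of Pdk4, Pappa, Depp1, Gldc, Abcc4, Pear1, Cyp4a14, Cyp24a1, Kcnc2 and Fam20a, all between 4.99 and 10.2. The lowest were Nalcn, Slc7a13, Ldc1, Col19a1, Pzp, Npnt, Itgb6, Arhgef19, Zfp442, Slco1a1, Kap, Cntnap5a, Hist1h4i, Dkk2 and Dleu7, all between 27.2-fold and 3.88-fold lower.

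Among genes with 100 UMIs, 4 of the 15 with the highest ratios and 1 of the 15 with the lowest had most of their UMIs in a library in 1 nucleus. Slc26a4, the pendrin gene of intercalated cells, had 156 UMIs in nephrectomy members, of which 149 lay in 1 nucleus, and 7 UMIs in sham members. Its ratio of 29.0 was 1.52 without the top nucleus of each library. Lsamp had 137 of 144 nephrectomy UMIs in 1 nucleus, Egfem1 206 of 215 and Sgcz 292 of 394, and without the top nuclei their ratios were 1.01, 1.17 and 3.16. Dkk2 had 66 of its 112 sham UMIs in 1 nucleus. Distal and collecting duct markers summed to 1283 CPM in nephrectomy members and 969.9 CPM in sham members, and 1 nephrectomy nucleus held 2189 of 3315 such UMIs. What these nuclei are was not tested, and these 5 genes are not described further.

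Other genes at the extremes belong to no list. Kcnc2, a voltage-gated potassium channel, had 346 CPM in nephrectomy nuclei and 62.8 CPM in sham nuclei, a ratio of 5.52 (4.74 to 6.44), and 231 and 92.1 CPM on the S1 side. Pear1, a receptor first described on platelets and endothelium, had 97 UMIs in 57 nephrectomy nuclei and 20 in 17 sham nuclei. Fam20a, a pseudokinase of the secretory pathway, had 96 UMIs in 51 nephrectomy nuclei and 25 in 19 sham nuclei. All 3 were spread over many nephrectomy nuclei. Pear1 was found after thinning in 7.58% of nephrectomy and 0.709% of sham S2-like nuclei, against 0.855% and 1.90% of thick ascending limb nuclei, and Fam20a in 5.21% and 1.77% against 0.570% and 0.543%. Arhgef19, a guanine nucleotide exchange factor, had 14 UMIs in nephrectomy and 87 in sham nuclei, and Hist1h4i, a histone H4 gene, 17 and 89. Zfp442 had 16 and 91 UMIs and Dleu7 23 and 116.

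**Figure D2:**
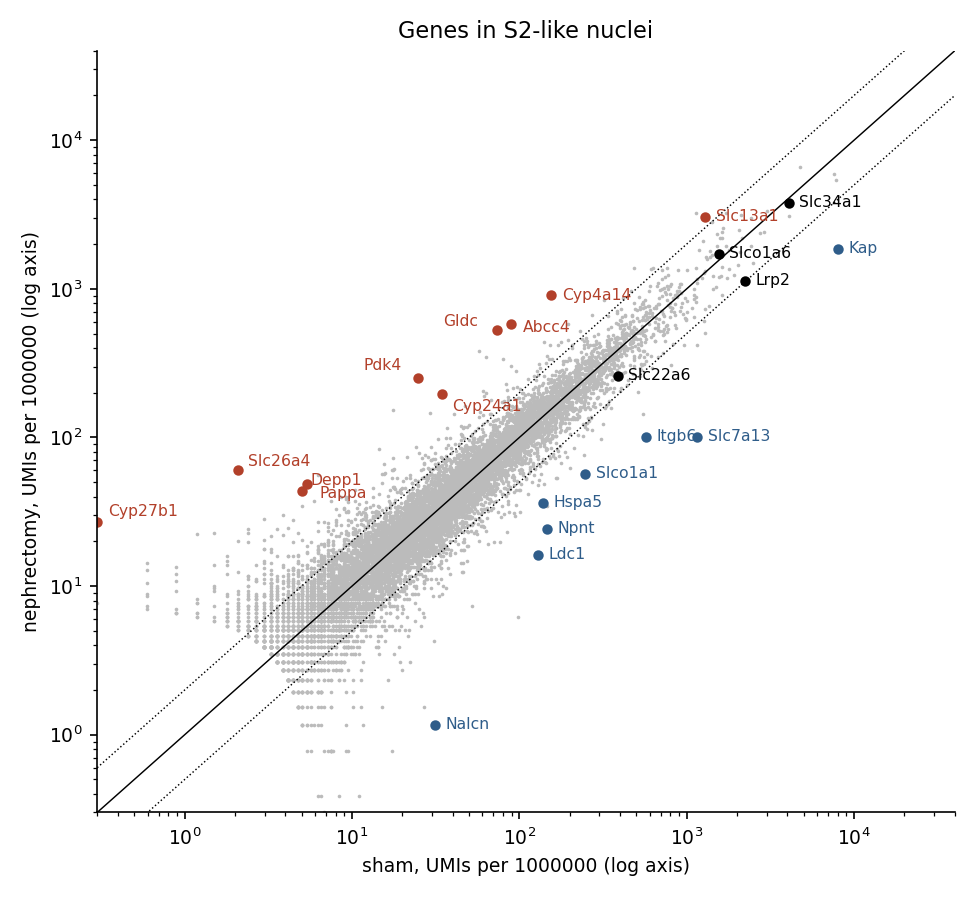
UMIs per 1000000 of each gene with at least 20 UMIs, summed over S2-like nuclei, in the nephrectomy library (vertical, log axis) and the sham library (horizontal, log axis). The solid line marks equal levels and the dotted lines 2-fold, and genes at 0 are drawn at the axis. Most genes lie between the dotted lines, while Pdk4, Cyp4a14, Gldc and Abcc4 lie far above and Slc7a13, Itgb6 and Kap far below.

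Genes of fatty acid oxidation and of the lipid-sensing nuclear receptor PPAR-alpha were higher after nephrectomy as a group. Of 55 members with at least 20 UMIs, of 61 listed, 25 were at least 1.5-fold higher and 3 at least 1.5-fold lower, against 14.9% and 12.4% of all genes, the shares beside which every list count at 1.5-fold stands. The median log2 ratio of the list was 0.46, against 0.05 for all genes, and 0.58 on the S1 side. Ppara itself had 1377 CPM in nephrectomy nuclei and 627 CPM in sham nuclei, a ratio of 2.19 (2.08 to 2.32).

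**Figure D3:**
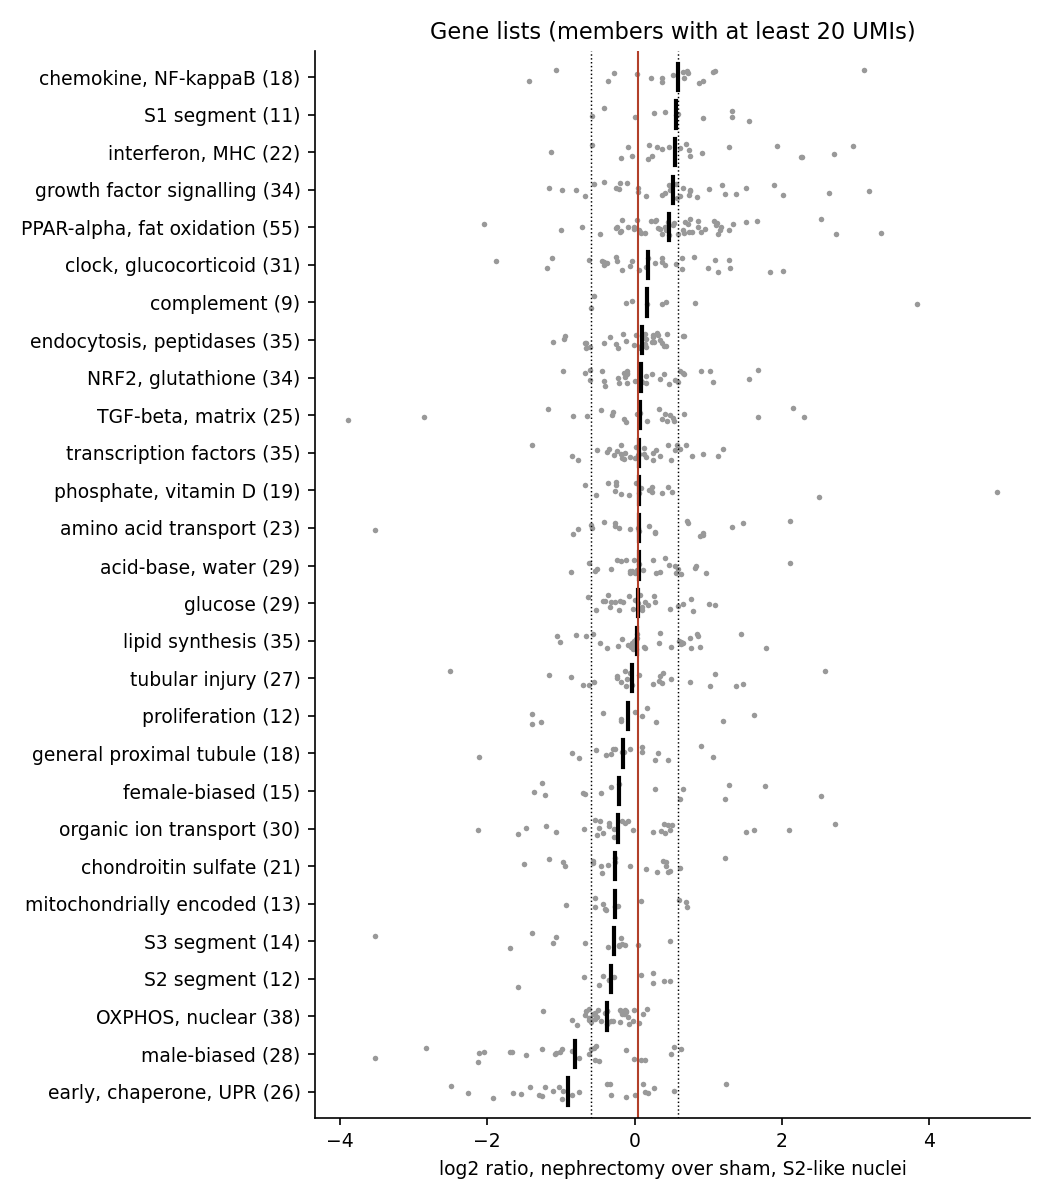
Log2 ratio, nephrectomy over sham, of each member with at least 20 UMIs of 28 gene lists in S2-like nuclei. Each point is a gene, black bars are list medians, the red line is the median of all genes at 0.05 and the dotted lines mark 1.5-fold. The lipid oxidation list has its median at 0.46, and the male-biased and chaperone lists at -0.80 and -0.91.

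Pdk4 (chromosome 6, 5483351 to 5496309) codes for the kinase that shuts off pyruvate dehydrogenase and so spares glucose when fat is burnt. It had 648 UMIs in 120 of 211 nephrectomy nuclei and 83 UMIs in 48 of 282 sham nuclei, which is 251 CPM against 24.7 CPM and a ratio of 10.2 (8.07 to 12.9). After thinning, 24.6% of nephrectomy nuclei (19 to 31) and 3.19% of sham nuclei (1.47 to 5.97) held a Pdk4 UMI. In thick ascending limb nuclei the shares were 16.2% and 11.1%, so the sham S2-like share is no higher than there.

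Cyp4a14 (chromosome 4, 115486200 to 115496142), a fatty acid omega-hydroxylase, had 903 CPM in nephrectomy nuclei and 156 CPM in sham nuclei, a ratio of 5.81 (5.28 to 6.40). A Cyp4a14 UMI was found in 201 of 211 nephrectomy nuclei and 139 of 282 sham nuclei, and after thinning in 72.5% and 21.3%, with 6.55% and 4.08% of thick ascending limb nuclei as background. Most nephrectomy members carried it. Its median per nucleus was 814 CPM in nephrectomy members and 0 CPM in sham members. On the S1 side Cyp4a14 had 480 CPM in nephrectomy nuclei and 55.6 CPM in sham nuclei, and below an S2 share of 10% its ratio was 12.5. Its higher level after nephrectomy was thus not particular to S2-like nuclei.

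Other enzymes of fatty acid activation and oxidation were higher too. Ehhadh, a bifunctional enzyme of peroxisomal beta-oxidation, had a ratio of 2.25 (2.05 to 2.46), Acsl1, which activates long-chain fatty acids, 3.15 (2.83 to 3.52), and Cyp4a10 2.14 (1.92 to 2.39). An Acsl1 UMI was found after thinning in 49.3% of nephrectomy and 20.6% of sham S2-like nuclei, no higher than the 53.8% and 55.4% of thick ascending limb nuclei. Not every gene of the list went this way. Cd36, the fatty acid uptake receptor, had 88.2 CPM in nephrectomy nuclei and 176 CPM in sham nuclei, and Cyp4a12a, which is male-biased in mouse kidney, had 5.03 and 20.8 CPM. Acox2, which shortens bile acid side chains, was the other member at least 1.5-fold lower, with a ratio of 0.610. Within S2 shares of 50 to 65%, 65 to 80% and 80 to 100% the ratio of Acox2 was 0.639, 0.523 and 1.02. The nuclei farthest from the S1 boundary thus did not show its lower level. Cyp4a12b, a close paralog of Cyp4a12a, went the other way. It had 49 UMIs in 32 of 211 nephrectomy nuclei and 41 UMIs in 31 of 282 sham nuclei, and the split of reads between these paralogs is uncertain.

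Cyp4a14 was found in most nephrectomy nuclei with or without Pdk4. Of the 120 nephrectomy nuclei with a Pdk4 UMI, 118 also held Cyp4a14 (98.3%), and of the 91 without, 83 did (91.2%). In sham nuclei the shares were 66.7% and 45.7%. Nuclei with a Pdk4 UMI were also deeper, with medians of 12184 UMIs against 9023 in the nephrectomy library and 14396.5 against 10387.5 in the sham library, and the part of depth in this was not tested.

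**Figure D4:**
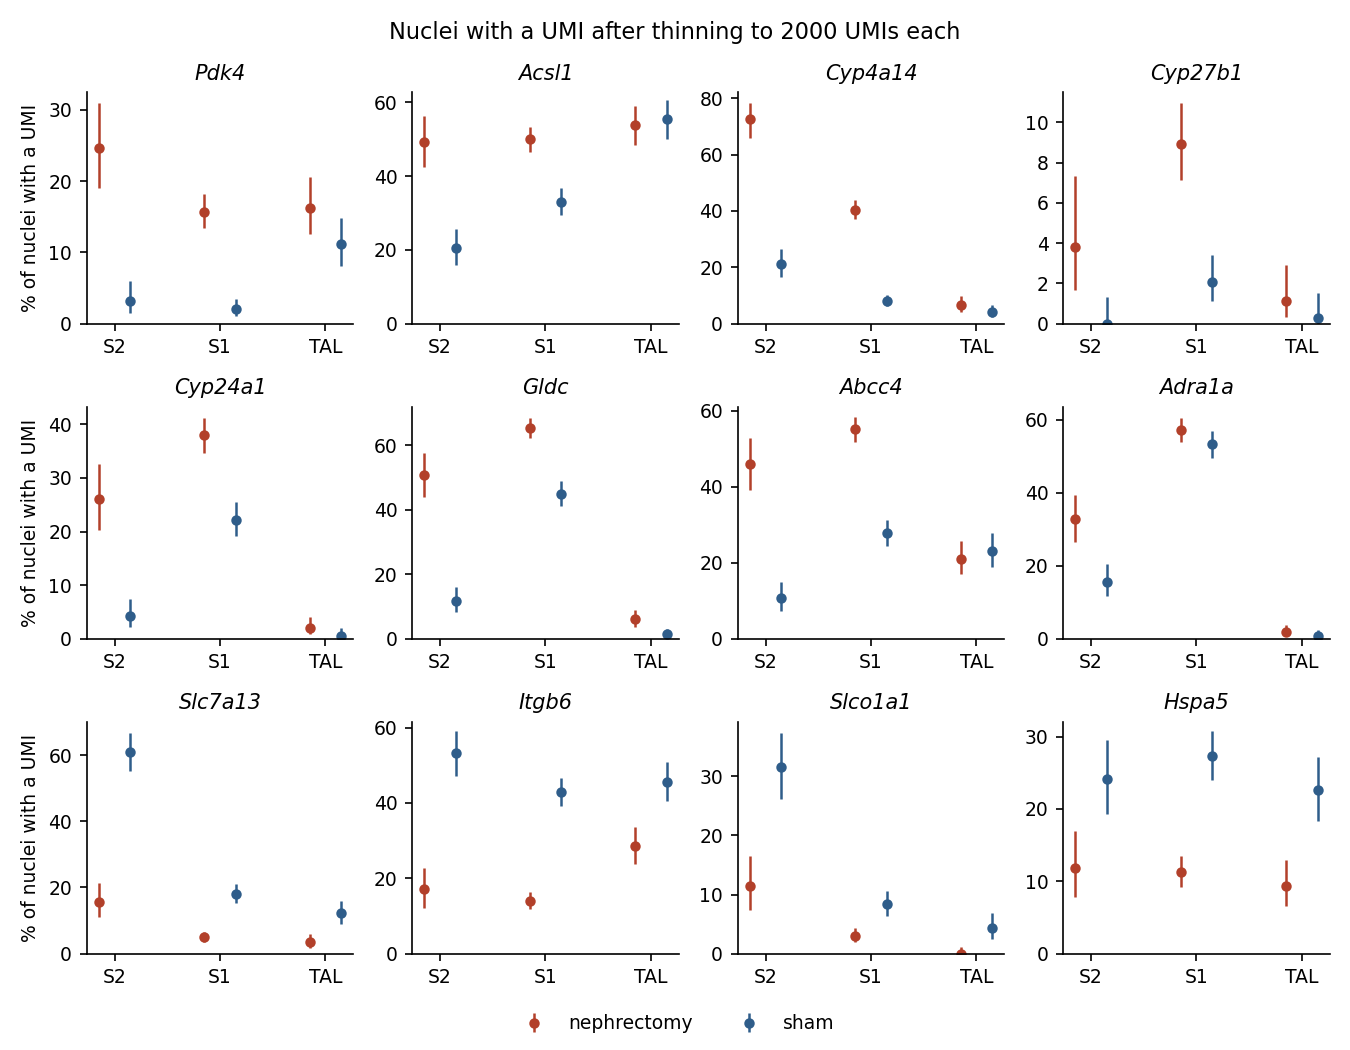
Percentage of nuclei with at least 1 UMI of each gene after thinning every nucleus to 2000 UMIs, in S2-like nuclei (S2), nuclei on the S1 side (S1) and thick ascending limb nuclei (TAL). Points are the nephrectomy library (left of each pair) and the sham library (right), and bars are exact 95% intervals for counting error. Gldc, Abcc4, Cyp24a1 and Adra1a have their lowest proximal tubule share in sham S2-like nuclei, and Slc7a13 and Slco1a1 their highest there.

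Genes of vitamin D and phosphate handling were mostly close between the libraries, apart from the 2 vitamin D hydroxylases. Of 19 members with 20 UMIs, of 24 listed, 2 were at least 1.5-fold higher and 1 lower, and the median log2 ratio was 0.07. Cyp24a1 (chromosome 2, 170482708 to 170497145), the 24-hydroxylase that inactivates vitamin D hormone, had 507 UMIs in 98 of 211 nephrectomy nuclei and 116 UMIs in 41 of 282 sham nuclei. Its level was 196 CPM in nephrectomy nuclei and 34.5 CPM in sham nuclei, a ratio of 5.68 (4.64 to 7.02), against 2.19 on the S1 side. Just outside the boundary, at an S2 share of 30 to 50%, the ratio was 4.57, and from 50 to 65% it was 4.35. Thinned shares of Cyp24a1 were 26.1% and 4.26% in S2-like nuclei, where thick ascending limb nuclei had 1.99% and 0.543%. Cyp27b1 (chromosome 10, 127048250 to 127053006), the 1-alpha-hydroxylase that makes the hormone, had 70 UMIs in 37 nephrectomy nuclei and 1 UMI in 1 sham nucleus, a ratio of 91.0 (15.8 to 3646). Nuclei on the S1 side had Cyp27b1 at 51.3 CPM in nephrectomy nuclei and 11.5 CPM in sham nuclei, and thick ascending limb nuclei held it in 1.14% and 0.272% after thinning, against 3.79% of nephrectomy S2-like nuclei and 0 of 282 sham ones, which allows up to 1.06% of nuclei with a UMI at that depth and sets no limit on nuclei that express the gene. The enzyme that makes the hormone and the enzyme that breaks it down were thus both higher in nephrectomy S2-like nuclei. Among the 37 nephrectomy nuclei with Cyp27b1, 18 held Cyp24a1 (48.6%), and among the 174 without, 80 did (46.0%).

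Receptors of the hormones that set these enzymes differed less. Vdr, the vitamin D receptor, had 335 CPM in nephrectomy nuclei and 331 CPM in sham nuclei. Pth1r, the parathyroid hormone receptor, had 164 and 196 CPM. Kl, which codes for klotho, the co-receptor of the phosphate hormone FGF23, was the member at least 1.5-fold lower, with 517 UMIs in nephrectomy nuclei and 1070 in sham nuclei, a ratio of 0.628 (0.565 to 0.699).

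Several genes of the S1 segment were higher in S2-like nuclei after nephrectomy and close to equal on the S1 side. Of 11 S1 genes not used in the rule, 5 were at least 1.5-fold higher and 0 lower in S2-like nuclei, with a median log2 ratio of 0.56. The median on the S1 side was -0.01. Adra1a, the alpha-1A adrenergic receptor, had 279 CPM in nephrectomy S2-like nuclei and 94.9 CPM in sham ones, a ratio of 2.94 (2.57 to 3.36). Its level on the S1 side was 568 and 503 CPM. An Adra1a UMI was found after thinning in 32.7% of nephrectomy and 15.6% of sham S2-like nuclei, and in 1.71% and 0.815% of thick ascending limb nuclei. Gatm, the first enzyme of creatine synthesis, had 442 CPM in nephrectomy and 177 CPM in sham S2-like nuclei, against 828 and 932 CPM on the S1 side. Slc6a19, the neutral amino acid transporter B0AT1, had 115 and 46.1 CPM in S2-like nuclei and 429 and 364 CPM on the S1 side. Slc7a8, the basolateral exchanger LAT2, had a ratio of 1.91 (1.66 to 2.19) in S2-like nuclei and 0.836 on the S1 side, and Pck1, the gluconeogenic enzyme PEPCK, 1.51 and 1.23. Slc6a13, a GABA and betaine transporter, and Slc36a1, a proton-coupled amino acid transporter, had ratios of 0.672 and 0.754 in S2-like nuclei.

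Because nephrectomy members lay closer to the S1 boundary, the same genes were compared within ranges of the S2 share. Adra1a had 275 CPM in nephrectomy and 129.8 CPM in sham nuclei with a share of 50 to 65%. From 65 to 80% it had 293 and 79.5 CPM, and from 80 to 100% 246 and 81.0 CPM. Its ratios in these ranges were 2.12, 3.69 and 3.04. For Gatm the ratios in these ranges were 2.22, 2.24 and 3.08, and for Slc6a19 1.69, 3.13 and 1.77. Just outside the boundary, from 30 to 50%, Adra1a had a ratio of 1.94 and Gatm 1.28. With the 3 S2-like ranges given equal weight the median log2 ratio of the S1 list was 0.53. The S2 share is built from genes of the rule, of which Slc22a6 was itself lower after nephrectomy. Equal shares therefore need not mean equal positions along the tubule, and the part of position in these ratios was not tested.

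Gldc (chromosome 19, 30098447 to 30175429), the glycine decarboxylase of the mitochondrial glycine cleavage system, also differed more in S2-like nuclei than on the S1 side. It had 527 CPM in nephrectomy S2-like nuclei and 73.8 CPM in sham ones, a ratio of 7.14 (6.23 to 8.21), and 791 and 415 CPM on the S1 side, a ratio of 1.91. Below an S2 share of 10% its level was 840.0 CPM in nephrectomy nuclei and 505 CPM in sham nuclei. From 30 to 50%, just outside the boundary, the ratio was 4.37, and from 50 to 65% it was 4.76. Above 80% the levels were 712 and 45.8 CPM, so the difference between the libraries was widest farthest from the S1 end. Thick ascending limb nuclei held Gldc in 5.98% of nephrectomy and 1.36% of sham nuclei after thinning, against 50.7% and 11.7% of S2-like nuclei.

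**Figure D5:**
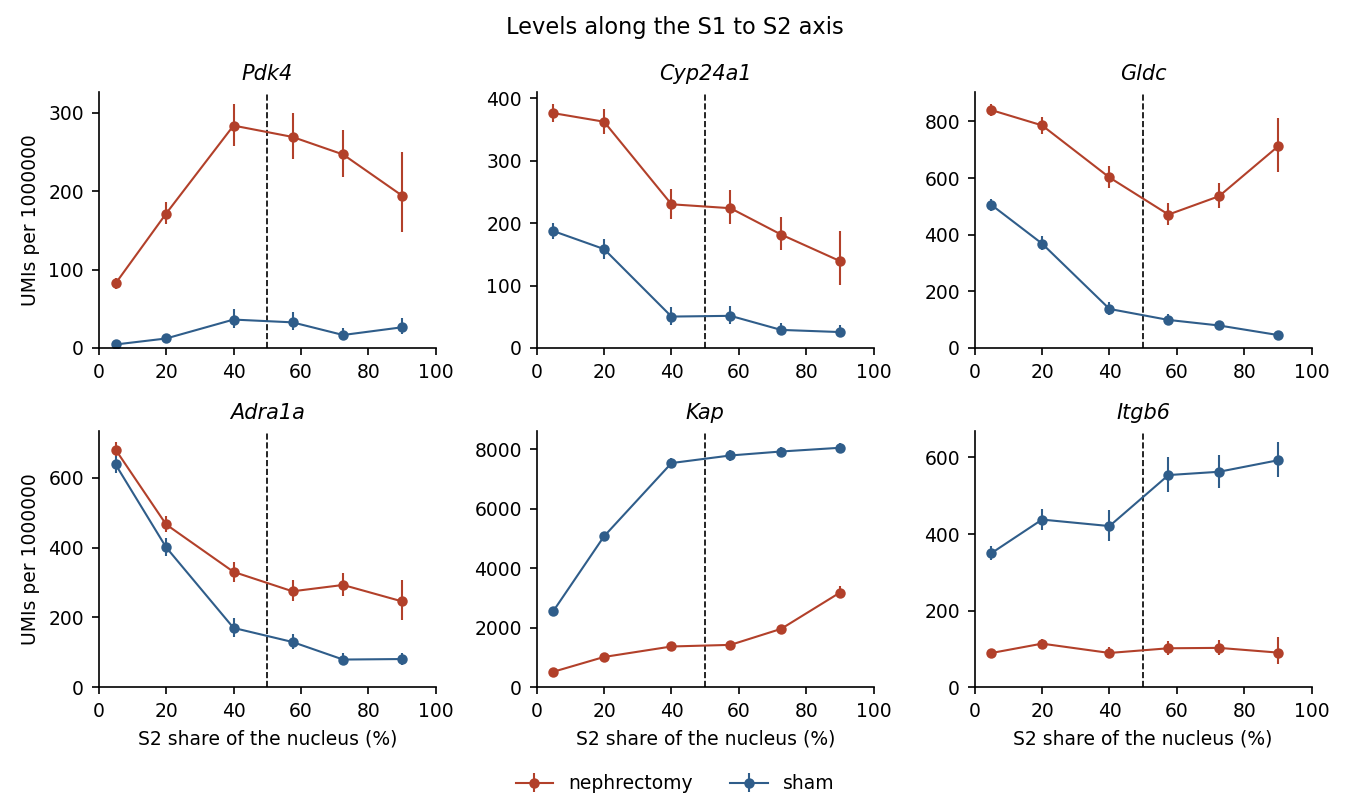
UMIs per 1000000 of 6 genes in proximal tubule nuclei grouped by S2 share (0 to 10, 10 to 30, 30 to 50, 50 to 65, 65 to 80 and 80 to 100%), with exact 95% Poisson intervals for counting error, in the nephrectomy and sham libraries. The dashed line is the S2-like boundary. Adra1a and Cyp24a1 are lower above 80% than below 10% in both libraries, Gldc above 80% has 712 CPM in nephrectomy and 45.8 CPM in sham nuclei, and Kap and Itgb6 are lower in nephrectomy nuclei in every range.

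Among transporters of organic ions, the function S2 is best known for, the efflux pump gene Abcc4 was higher and Slco1a1 and Slc22a28 were lower. Of 30 organic anion and cation transporters with 20 UMIs, of 35 listed, 4 were at least 1.5-fold higher and 6 at least 1.5-fold lower, near the 14.9% and 12.4% of all genes, and the median log2 ratio was -0.23. The 4 that were higher were Abcc4, Abcb1b, Abcb1a and Slc2a9, of which Abcb1a (33 and 14 UMIs) had a ratio below 1, of 0.802, after thinning. Few Abcb1a UMIs are left at that depth, where the floor of 3 counts can set the ratio. Abcc4 (chromosome 14, 118482692 to 118706219), the apical efflux pump MRP4, had 583 CPM in nephrectomy nuclei and 88.7 CPM in sham nuclei, a ratio of 6.57 (5.80 to 7.47), against 3.52 on the S1 side. In nuclei just outside the boundary, with an S2 share of 30 to 50%, its ratio was 8.66. In S2-like nuclei it was 7.86 from 50 to 65%, 7.54 from 65 to 80% and 4.89 from 80 to 100%. Abcc4 had a UMI in 150 of 211 nephrectomy and 69 of 282 sham nuclei. After thinning the shares were 46.0% and 10.6%, with 21.1% and 23.1% in thick ascending limb nuclei, so only the nephrectomy share exceeds that level. Abcb1b, a P-glycoprotein gene, had 102 UMIs in nephrectomy nuclei and 31 in sham nuclei, a ratio of 4.28 (2.84 to 6.62). Slc2a9, the urate transporter GLUT9, had a ratio of 2.87 (2.03 to 4.10).

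The 6 that were lower were Slco1a1, Slc22a7, Slc22a28, Slc22a22, Slc22a30 and Slc17a3. Slco1a1, an organic anion transporting polypeptide, had 56.9 CPM in nephrectomy nuclei and 248 CPM in sham nuclei, a ratio of 0.229 (0.191 to 0.273), with 11.4% and 31.6% of nuclei holding it after thinning and 0% and 4.35% of thick ascending limb nuclei. Slc22a28, an organic anion transporter, had 418 and 1159.7 CPM, a ratio of 0.360 (0.337 to 0.386), and its median per nucleus was 366 CPM in nephrectomy and 1068 CPM in sham members. Slc22a30 had a ratio of 0.478 (0.451 to 0.506) and Slc22a7, which codes for OAT2, 0.336 (0.181 to 0.589). Slc22a8 (OAT3) had 256 CPM in nephrectomy and 184 CPM in sham nuclei, so not all carriers of this family were lower. Of 12 S2 markers outside the rule, 0 were at least 1.5-fold higher and 2, Slc22a7 and Slc17a3, lower, with a median log2 ratio of -0.31.

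Amino acid transporters went both ways. Of 23 with 20 UMIs, of 27 listed, 8 were at least 1.5-fold higher and 4 lower, against 14.9% and 12.4% of all genes. The highest ratio among them was that of Slc38a3, the glutamine transporter SNAT3 that feeds ammonia production, with 70 UMIs in 45 nephrectomy nuclei and 21 in 20 sham nuclei, a ratio of 4.34 (2.63 to 7.43). Its thinned share was 5.69% and 1.77%, against 1.71% and 0.543% in thick ascending limb nuclei. Slc7a9, the apical cystine transporter subunit of early segments, had a ratio of 1.63 (1.43 to 1.87). Slc7a13 (chromosome 4, 19818725 to 19842218) was the most reduced, with 260 UMIs in 74 of 211 nephrectomy nuclei and 3900 UMIs in 232 of 282 sham nuclei. It had 101 CPM in nephrectomy nuclei and 1160.3 CPM in sham nuclei, a ratio of 0.0867 (0.0762 to 0.0983), and its median per nucleus was 0 and 738 CPM. After thinning 15.6% of nephrectomy and 61.0% of sham S2-like nuclei held it, with 3.42% and 12.2% of thick ascending limb nuclei as background.

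Genes of acid-base handling had no common direction. Of 29, 6 were at least 1.5-fold higher and 2 lower, near the 14.9% and 12.4% of all genes, with a median log2 ratio of 0.06. Glud1, glutamate dehydrogenase of the ammonia pathway, had 463 CPM in nephrectomy nuclei and 237 CPM in sham nuclei, a ratio of 1.95 (1.78 to 2.14). Atp6v0a4, a subunit of the apical proton pump, had 1373 and 767 CPM, a ratio of 1.79 (1.70 to 1.88). Cldn10, a paracellular channel protein, was lower, with 292 CPM in nephrectomy nuclei and 529 CPM in sham nuclei. Among 29 genes of glucose transport and metabolism 6 were higher, among them the gluconeogenic G6pc with a ratio of 1.70 (1.59 to 1.81), and 1 lower, the glycolytic Gapdh with 0.646.

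Male-biased genes of the mouse proximal tubule were lower in nephrectomy S2-like nuclei. Of 28 with 20 UMIs, of 30 listed, 17 were at least 1.5-fold lower, against 12.4% of all genes, and 1 was higher. The median log2 ratio was -0.80 in S2-like nuclei and -0.58 on the S1 side. Slc7a13 and Slco1a1, given above, are on this list. Kap (chromosome 6, 133849851 to 133853762) had 1862 CPM in nephrectomy nuclei and 8007 CPM in sham nuclei, a ratio of 0.233 (0.226 to 0.240), and a ratio of 0.197 on the S1 side. Per nucleus its 10th and 90th percentiles were 360.2 and 5649.7 CPM in nephrectomy members and 3403 and 18345 CPM in sham members. Pzp, a protease-binding protein, had 19 UMIs in 13 nephrectomy nuclei and 176 in 90 sham nuclei. Odc1, ornithine decarboxylase of polyamine synthesis and a classic androgen target of mouse kidney, had 53.0 CPM in nephrectomy nuclei and 168 CPM in sham nuclei, a ratio of 0.316 (0.260 to 0.381). Acsm3, a medium-chain acyl-CoA synthetase, had a ratio of 0.310 (0.259 to 0.368).

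Female-biased genes did not move as the mirror image. Of 15 with 20 UMIs, 6 were at least 1.5-fold higher and 5 lower, with Cyp4a14 and Kynu, a kynurenine pathway enzyme with a ratio of 3.41, at the top and Nat8f1 with 0.387 at the bottom. S3 genes outside the rule were lower in 6 of 14 with 20 UMIs and higher in 0. Their median log2 ratio was -0.29, and -0.27 on the S1 side. The 6 were Slc7a13, Acsm3, Atp11a, Mep1b, Slc22a30 and Rnf24, of which Slc7a13, Acsm3 and Slc22a30 are also on the male-biased list. Atp11a, a phospholipid flippase, had 306 CPM in nephrectomy nuclei and 801 CPM in sham nuclei. Slc5a1, the S3 glucose transporter SGLT1, had 65.4 and 46.7 CPM, with a UMI in 70 of 211 nephrectomy and 101 of 282 sham nuclei. Not every S3 gene was thus lower in CPM.

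Ldc1 (chromosome 4, 130209109 to 130222401), annotated as a leucine decarboxylase, was among the lowest ratios, with 42 UMIs in 34 nephrectomy nuclei and 437 in 167 sham nuclei, a ratio of 0.125 (0.0888 to 0.172). Its level on the S1 side was 5.52 CPM in nephrectomy and 34.5 CPM in sham nuclei. After thinning it was found in 3.32% of nephrectomy and 22.7% of sham S2-like nuclei, and in 0.285% and 0.815% of thick ascending limb nuclei. Nalcn, a sodium leak channel, had 3 UMIs in nephrectomy nuclei and 106 in sham nuclei, a ratio of 0.0368 (0.00747 to 0.111). Cntnap5a, a neurexin-family adhesion gene, had 90 and 491 UMIs.

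Chaperones of the endoplasmic reticulum and cytosol were lower as a group. Of 26 early-response, chaperone and unfolded protein response genes with 20 UMIs, of 35 listed, 15 were at least 1.5-fold lower and 1 higher, against 12.4% and 14.9% of all genes. The median log2 ratio was -0.91, and -0.89 on the S1 side. With every member of at least 1 UMI counted, which added 5 members of under 20 UMIs, it was -0.37 over 31 members. Hspa5 (chromosome 2, 34771970 to 34777547), the endoplasmic reticulum chaperone BiP, had 94 UMIs in 69 of 211 nephrectomy nuclei and 464 UMIs in 190 of 282 sham nuclei, a ratio of 0.263 (0.209 to 0.330). Hsp90b1, its partner GRP94, had a ratio of 0.320 (0.263 to 0.386), Pdia4, a disulfide isomerase, 0.405 (0.281 to 0.574), and Calr, calreticulin, 0.421 (0.342 to 0.514). Cytosolic chaperones were lower too. Hspa8, the constitutive HSC70, had 224 CPM in nephrectomy nuclei and 439 CPM in sham nuclei, a ratio of 0.510 (0.463 to 0.562). The inducible Hspa1a had 1 and 22 UMIs and Hspa1b 4 and 25. The member that was higher was Sesn2, a sestrin of the amino acid response, with a ratio of 2.36 (1.89 to 2.96), and Jun had a ratio of 1.45 (0.830 to 2.53). Hspa5 was found less often in nephrectomy nuclei of another cell type as well. After thinning, thick ascending limb nuclei held Hspa5 in 9.40% of the nephrectomy and 22.6% of the sham library, against 11.8% and 24.1% of S2-like nuclei.

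Because these chaperone genes moved together, their promoters were read from RefSeq on GRCm38.p6 (250 bases before the annotated start) and searched on both strands for the endoplasmic reticulum stress element, CCAAT and CCACG with 9 bases of any kind (N) between them. The motif stood in 37 of 32851 promoter entries (0.113%). Of the 21 list genes with a promoter entry, 3 held it: Hspa5, Hsp90b1 and Calr. The motif was picked with these chaperone genes in view, and the first count is of entries and the second of genes. The 2 counts are therefore not compared. Hsp90b1 held 2 copies, 1 on each strand. The motif is in capitals below, read on the reverse strand in Calr and in the second copy of Hsp90b1, and a match is a description of letters only.
Hspa5, chr2:34771840-34772089, plus strand: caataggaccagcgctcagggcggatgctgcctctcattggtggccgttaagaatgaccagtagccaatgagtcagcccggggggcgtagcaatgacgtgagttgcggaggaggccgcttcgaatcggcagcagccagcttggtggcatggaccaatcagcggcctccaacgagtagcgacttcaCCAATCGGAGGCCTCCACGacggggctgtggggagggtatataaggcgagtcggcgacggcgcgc
Hsp90b1, chr10:86705445-86705694, minus strand: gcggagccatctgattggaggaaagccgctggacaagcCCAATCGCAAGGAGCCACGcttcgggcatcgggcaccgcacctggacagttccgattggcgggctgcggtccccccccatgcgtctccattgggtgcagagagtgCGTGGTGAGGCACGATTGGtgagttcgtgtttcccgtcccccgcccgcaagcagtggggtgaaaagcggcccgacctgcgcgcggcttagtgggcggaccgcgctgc
Calr, chr8:84846932-84847181, minus strand: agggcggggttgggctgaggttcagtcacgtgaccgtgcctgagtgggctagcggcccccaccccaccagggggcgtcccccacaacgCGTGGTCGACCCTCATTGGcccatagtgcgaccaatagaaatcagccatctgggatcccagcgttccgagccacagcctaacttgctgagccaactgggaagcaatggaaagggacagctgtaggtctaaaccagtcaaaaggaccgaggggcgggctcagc

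The heat shock element, here GAA, TTC and GAA with 2 bases between parts, stood in 153 promoter entries (0.466%). Among the list genes it stood in Hspd1 and Hspe1, mitochondrial chaperones whose windows overlap and hold the same 2 overlapping copies. It was picked in the same way, and these counts are not compared either. The ratios of Hspd1 and Hspe1 were 0.595 (0.517 to 0.684) and 0.556 (0.473 to 0.652).

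Nuclear-coded subunits of oxidative phosphorylation were modestly lower, in contrast to the oxidation enzymes. Of 38 subunits, all with 20 UMIs, 10 were at least 1.5-fold lower and 0 higher, and the median log2 ratio was -0.37, against -0.45 on the S1 side. Cycs, cytochrome c, had 56.9 CPM in nephrectomy nuclei and 134 CPM in sham nuclei, a ratio of 0.423 (0.349 to 0.511). Ndufb8 and Ndufb9 of complex I had ratios of 0.556 and 0.581, while Sdha and Sdhc of complex II had 1.08 and 1.12. Transcripts of the mitochondrial genome, which reach nuclei preparations as carried-over cytoplasm, had a median log2 ratio of -0.27, with mt-Nd4 at 0.691 and mt-Nd3 at 1.63. The median mitochondrial share of UMIs was 0.775% in nephrectomy and 0.842% in sham members, and the part of carried-over cytoplasm in these ratios was not tested.

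Of the chemokine and NF-kappaB list, more members were higher than lower, from low levels. Of 18 with 20 UMIs, of 37 listed, 9 were at least 1.5-fold higher and 2 lower, with a median log2 ratio of 0.59. Icam1, an adhesion molecule for leukocytes, had 37 UMIs in 29 nephrectomy nuclei and 23 in 20 sham nuclei, a ratio of 2.09 (1.21 to 3.69). Birc3, an NF-kappaB target that restrains cell death, had 36 and 22 UMIs, a ratio of 2.13 (1.22 to 3.80). Il34, a ligand of the macrophage colony factor receptor, was lower, with 35.2 CPM in nephrectomy nuclei and 94.9 CPM in sham nuclei, while on the S1 side it had 31.5 and 25.5 CPM. Il15 had a ratio of 0.477 (0.417 to 0.544). Of the 20 nephrectomy UMIs of Cxcl10, 18 came from 1 nucleus. With a proximal tubule limit of 1% of UMIs, which left 76 nuclei in each library, the list median was 0.00, and so it was after thinning, with 5 members.

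C3, the central complement component, had 33 UMIs in 26 nephrectomy nuclei and 2 in 2 sham nuclei, a ratio of 21.5 (5.49 to 185), and a ratio of 16.2 on the S1 side. After thinning 2.37% of nephrectomy S2-like nuclei held it, and 0.855% of thick ascending limb nuclei. C2 had a ratio of 1.76 (1.28 to 2.44), and of 9 complement genes with 20 UMIs 2 were at least 1.5-fold higher and 1 lower. Of 22 interferon and antigen presentation genes, of 40 listed, 11 were higher and 1 lower, with a median log2 ratio of 0.54, which was 0.25 over the 6 members with 100 UMIs. Several of the highest had a large part of their UMIs in single nuclei: Iigp1 had 66 of 78 nephrectomy UMIs in 1 nucleus, Gbp7 17 of 37 and Irf1 12 of 25. Leukocyte markers were low in the members, with 89 UMIs in nephrectomy nuclei and 127 in sham nuclei, and Themis and Cd3e of T cells were at 0 in both libraries.

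Growth factor, hormone and receptor genes were higher in 15 and lower in 4 of 34 with 20 UMIs, of 40 listed. The median log2 ratio was 0.52, and 0.01 on the S1 side. It was 0.13 after thinning, where 23 members kept 20 UMIs, and 0.23 with a proximal tubule limit of 1% of UMIs. Pappa, a protease that frees insulin-like growth factors from their binding proteins, had 126 UMIs in 58 nephrectomy nuclei and 18 in 9 sham nuclei, a ratio of 9.10 (5.53 to 15.9). After thinning its share was 7.11% in nephrectomy and 1.06% in sham S2-like nuclei, no higher than the 8.55% and 5.16% of thick ascending limb nuclei. Irs2, an adaptor of the insulin receptor, had 56.5 CPM in nephrectomy nuclei and 15.2 CPM in sham nuclei, a ratio of 3.72 (2.69 to 5.23). Igfbp1, an insulin-like growth factor binding protein, had 53 UMIs in 40 nephrectomy nuclei and 17 in 14 sham nuclei, a ratio of 4.05 (2.31 to 7.47). Depp1, a target of FOXO factors that is induced by fasting, had 113 and 17 UMIs, a ratio of 8.64 (5.17 to 15.4). Ghr, the growth hormone receptor, was among the most abundant transcripts of the members and was lower, with 5376 CPM in nephrectomy nuclei and 7856 CPM in sham nuclei. Met, the hepatocyte growth factor receptor, had a ratio of 0.504 (0.444 to 0.571).

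Part of that list is shared with endothelium. Flt1 and Kdr, receptors for vascular endothelial growth factor, had ratios of 2.28 and 2.60, and 44 of 114 nephrectomy UMIs of Flt1 lay in 1 nucleus. Without the members that carry other cells' markers, their ratios were 1.39 and 1.25, and the list median was 0.46. Angpt1, the angiopoietin ligand, had 72 UMIs in 31 nephrectomy S2-like nuclei and 15 in 12 sham nuclei, a ratio of 6.24 (3.55 to 11.7). On the S1 side Angpt1 was far more abundant, at 427 CPM in nephrectomy nuclei and 545 CPM in sham nuclei. Its thinned share of 6.64% in nephrectomy S2-like nuclei compares with 4.56% in thick ascending limb nuclei, and the sham shares were 1.42% and 2.45%.

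Itgb6 (chromosome 2, 60598292 to 60722643), the beta-6 integrin subunit that activates latent TGF-beta, was lower, with 261 UMIs in 86 of 211 nephrectomy nuclei and 1918 UMIs in 229 of 282 sham nuclei. Its level was 101 CPM in nephrectomy nuclei and 571 CPM in sham nuclei, a ratio of 0.177 (0.155 to 0.202), and the S1 side had a ratio of 0.251. After thinning 17.1% of nephrectomy and 53.2% of sham S2-like nuclei held it, against 28.5% and 45.7% of thick ascending limb nuclei, so the nephrectomy share is no higher than there. In the 3 ranges of the S2 share from the boundary upwards the ratio was 0.184, 0.183 and 0.153. Npnt, nephronectin, a basement membrane ligand of another integrin, had 24.4 CPM in nephrectomy nuclei and 146 CPM in sham nuclei, a ratio of 0.167 (0.127 to 0.218), against 0.373 on the S1 side. Of 25 TGF-beta and matrix genes with 20 UMIs, of 45 listed, 4 were at least 1.5-fold higher and 5 lower, with a median log2 ratio of 0.07. Col19a1 had 11 UMIs in nephrectomy nuclei and 104 in sham nuclei, and Plau, the urokinase gene, a ratio of 0.441 (0.347 to 0.557). Stromal markers were near 0, with 35 and 31 UMIs over all members.

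Csgalnact1 (chromosome 8, 68356781 to 68735146), an enzyme that begins the sugar chain of chondroitin sulfate, is the enzyme named in the study's title together with versican. Its level was 218 CPM in nephrectomy S2-like nuclei and 280.0 CPM in sham ones, a ratio of 0.779 (0.701 to 0.866). It had a UMI in 150 of 211 nephrectomy and 210 of 282 sham nuclei, and after thinning in 35.5% (29.1 to 42.4) and 33.7% (28.2 to 39.5), so the shares after thinning overlapped in their intervals. The gene was more abundant in S2-like nuclei than on the S1 side, at 1.80 times its level in the nephrectomy library and 2.72 times in the sham library. On the S1 side its ratio was 1.17. Thick ascending limb nuclei held it in 2.56% and 2.72%. Vcan, the core protein versican, had 7 UMIs in nephrectomy members and 2 in sham members, a ratio of 4.55 (0.867 to 44.9), too few to describe. Of 21 chondroitin and dermatan sulfate genes with 20 UMIs, of 35 listed, 2 were at least 1.5-fold higher and 4 lower, against 14.9% and 12.4% of all genes. The 2 were the core protein genes Cspg4, with 27 UMIs in nephrectomy and 15 in sham nuclei, and Bgn, with 13 and 11. The 4 lower ones were the sulfotransferase genes Chst11, Chst7 and Chst3 and the sulfate donor synthase gene Papss1, with Chst11 at 114 CPM in nephrectomy nuclei and 255 CPM in sham nuclei, a ratio of 0.446 (0.389 to 0.510), and Papss1 at 0.522 (0.392 to 0.688).

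Clock genes differed in both directions. Of 31 clock and glucocorticoid response genes, 10 were at least 1.5-fold higher and 4 lower. Cry1 and Per1, repressors of the circadian clock, had ratios of 4.03 (1.93 to 9.22) and 2.44 (1.88 to 3.19), and Nr1d1 and Nfil3, clock repressors of other phases, 0.458 (0.278 to 0.732) and 0.271 (0.122 to 0.542). The time of day of collection is not given in the labels. Nr3c2, the mineralocorticoid receptor, had a ratio of 2.13 (1.80 to 2.53) and Zbtb16, a glucocorticoid target, 2.20 (1.95 to 2.48).

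Of 18 genes shared by the proximal tubule segments, 2 were higher and 3 lower at 1.5-fold, with a median log2 ratio of -0.16. Of 35 endocytic and brush border genes, 2 were higher and 7 lower at 1.5-fold. Lrpap1, the chaperone of megalin, had a ratio of 0.517 (0.434 to 0.614), next to 0.501 for Lrp2, whereas Cubn, the partner receptor cubilin, had 1.19. Of 34 NRF2 and glutathione genes 9 were higher, with Gsta2 at 2.10, and 4 lower, with Gclm, the modifier subunit of glutathione synthesis, at 0.629. Gpx3, the secreted glutathione peroxidase made by the proximal tubule, had 3229 CPM in nephrectomy nuclei and 1720.2 CPM in sham nuclei. Of 35 lipid synthesis and uptake genes 11 were higher, led by Elovl6, an elongase, at 3.45, and 4 lower, with Lpl, lipoprotein lipase, at 0.483. Among 35 transcription factors 6 were higher, Tox, Ppara and Stat3 most so, with Stat3 at 1.91 (1.59 to 2.29), and 3 lower, with the repressor Bcl6 at 0.380 (0.321 to 0.447).

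Injury and proliferation genes showed no common direction. Of 27 injury genes with 20 UMIs, of 44 listed, 6 were higher and 5 lower, with a median log2 ratio of -0.03. Spp1, osteopontin, had 229 CPM in nephrectomy nuclei and 82.7 CPM in sham nuclei, a ratio of 2.77 (2.40 to 3.21). After thinning 42.7% of nephrectomy and 16.7% of sham S2-like nuclei held it, both below the 62.7% and 59.5% of thick ascending limb nuclei. Those nuclei thus give no background for Spp1, and nothing is drawn from the comparison with them. Fga, the fibrinogen alpha chain, had 46 UMIs in 31 nephrectomy nuclei and 10 in 9 sham nuclei, a ratio of 5.98 (2.98 to 13.3). Of 12 proliferation genes with 20 UMIs, of 30 listed, 2 were higher and 3 lower. Mki67, a marker of dividing cells, had 10 and 34 UMIs, a ratio of 0.383. It was 1.00 after thinning, where few Mki67 UMIs are left and the floor of 3 counts can set the ratio. Ccnd3, cyclin D3, had 189 CPM in nephrectomy nuclei and 61.3 CPM in sham nuclei, a ratio of 3.09 (2.62 to 3.65).

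Genes that stood out in S2-like nuclei over both other sides of the proximal tubule, by the smaller of their ratios over the S1 and S3 sides in either library, were Dpys, Cdh4, Utp20, Cyp2e1, Inmt, Car4, Cndp1, Ugt2b37, Cyp4a14 and Ugt8a. They were selected for these levels, which are given as a description, and the S3 side rested on 7 and 14 nuclei. Dpys, dihydropyrimidinase of pyrimidine breakdown, had 113 CPM in nephrectomy S2-like nuclei and 46.3 CPM on the S1 side, and 84.5 and 16.4 CPM in the sham library. Cyp2e1, a monooxygenase of small solvents, had 266 CPM in nephrectomy S2-like nuclei and 142 CPM on the S1 side, and 251 and 135 CPM in the sham library. Cdh4, a cadherin, had 84.7 and 33.8 CPM in the nephrectomy library and 64.9 and 24.2 CPM in the sham library. The S1 side includes nuclei far from the boundary. Just outside it, at an S2 share of 30 to 50%, Dpys had 146 CPM in nephrectomy and 69.4 CPM in sham nuclei. Cyp2e1 had 246 and 304 CPM there, and Cdh4 80.9 and 39.3 CPM. Dpys in nephrectomy nuclei and Cyp2e1 in sham nuclei were thus above their S2-like level there, so these genes did not all set S2-like nuclei apart from their nearest neighbours. Between the libraries, Dpys, Cdh4 and Cyp2e1 in S2-like nuclei had ratios of 1.34, 1.31 and 1.06. Ugt8a, a galactosyltransferase on the male-biased list, and Ugt2b37, a glucuronosyltransferase, had ratios of 0.553 (0.498 to 0.613) and 0.527 (0.435 to 0.635). Dpys, Cdh4 and Cyp2e1 were thus within 1.5-fold between the libraries, and Cyp4a14 was the only one of the 10 at least 2-fold apart.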

How the data were processed

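Nuclei were profiled with 10x Genomics Chromium, 1 library per group (3299 nephrectomy and 3084 sham barcodes). The deposited files hold raw UMI counts per gene and barcode, written by Cell Ranger 7.0.1 per the file headers, while the submitters' processing notes name Cell Ranger 7.1.0 and the mm10 genome. Barcodes were filtered and S2-like nuclei chosen by the limits in the text, counts were summed per library and scaled to 1000000 UMIs, and no free RNA was subtracted. Intervals are exact (Poisson for levels, conditional binomial for ratios, Clopper-Pearson for shares, Newcombe for the difference of shares), cover counting error only, and are not tests. Genes needed 20 UMIs over both libraries and a fold of 2, or of 1.5 within lists. For fold counts, list medians, rankings and alternatives, a gene with under 3 UMIs in a library was set to a floor of 3 counts. Ratios printed with an interval, such as those of Cyp27b1 and C3, use the UMIs as counted. The calculation was tested on simulated data. Scrublet's own threshold marked 148 nephrectomy and 8 sham barcodes, so doublets were kept, and the highest 5% of its scores were left out as an alternative.

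The text names the 15 highest and 15 lowest ratios among genes with 100 UMIs, 3 members at each end of every list, the genes of the rule, Csgalnact1, Vcan and the 10 genes leading over the other segments. Predicted, mitochondrial and ribosomal genes were kept out of the 15, and not every gene these limits pick is reported here. Acsl1, Ehhadh, Cyp4a10, Ppara, Vdr, Pth1r, Odc1, Pck1, G6pc, Gatm, Slc7a8, Slc7a9, Slc2a9, Slc17a3, Slc22a22, Slc22a28, Slc22a30, Acsm3, Atp11a, Rnf24, Calr, Pdia4, Hsp90b1, Hspa8, Hspd1, Hspe1, Irs2, Ghr, C3, Nr3c2, Zbtb16, Papss1 and Spp1 were added, some of them after their values were seen. The members and gene lists were chosen with earlier results of these data known. Close paralogs (Cyp4a, Slc22a, Abcb1, Hspa1, Ugt2b, Gsta) can share reads, and their split between genes is uncertain. Gene positions are GENCODE M21 on GRCm38, which held 32158 of 32285 identifiers, and promoters are RefSeq on GRCm38.p6. Alternatives changed depth, mitochondrial, proximal tubule and segment limits, the scaling (edgeR 4.0.16 TMM factors, equal weight per nucleus) and the minimum of UMIs. Leaving out members with other cells' markers, weighting ranges of the S2 share and leaving out the top nucleus were chosen after seeing the data. Python 3.11.15 with scanpy 1.11.5 and scipy 1.17.1 was used. The 2 barcodes that the libraries share were not S2-like.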

Additional observations from a re-analysis of the deposited data

Results flagged for a closer look

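Dpep1, a brush border dipeptidase, had a ratio above 1 in S2-like nuclei and below 1 on the S1 side. It had 22.4 CPM in nephrectomy S2-like nuclei and 14.3 CPM in sham ones (58 and 48 UMIs), a ratio of 1.57 (1.05 to 2.35). On the S1 side it had 41.7 CPM in nephrectomy nuclei and 67.9 CPM in sham nuclei, a ratio of 0.614. Within S2 shares of 50 to 65%, 65 to 80% and 80 to 100% its ratio was 1.55, 1.57 and 0.98. The last ratio is of 12.9 CPM in nephrectomy nuclei and 13.2 CPM in sham nuclei. Only 58 and 48 UMIs are split over these ranges, so nothing is drawn from a difference between them. The difference between the segments was not tested, and with 1 library in each group each direction rests on 1 sample.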

How the results depend on the processing

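No paired analysis was possible because each group was 1 library. There were 16 alternatives, and not every result was computed in each. The medians of the S1 and male-biased lists stayed within 1.5 times their value in all but leaving out the top nucleus, where list medians were not computed. The lipid oxidation list had a median log2 ratio of 0.84 with a proximal tubule limit of 1% of UMIs, which kept 76 nuclei per library. The NF-kappaB list gave -0.00079 under that limit (11 members with 20 UMIs) and 0.0034 after thinning to 2000 UMIs (5 members), and 0.36 with a minimum of 100 UMIs (6 members). The growth factor list gave 0.13 after thinning and 0.23 under the 1% limit, the interferon list 0.25 with a minimum of 100 UMIs and the chaperone list -0.37 with a minimum of 1 UMI. Genes at least 2-fold higher numbered 404 of 7073 after thinning, 229 of 7551 with a minimum of 100 UMIs and 1308 of 19329 with a minimum of 1 UMI. Genes at least 2-fold lower numbered 359, 193 and 786 there. TMM factors gave 573 higher and 657 lower genes, so the larger side turned. The S2-like share differed by -7.35 to -11.2 percentage points over the alternatives that changed the members. Of the 96 named genes past 2-fold, 92 kept their direction and 66 stayed past 2-fold in every alternative in which gene ratios were computed. Changed minimums of UMIs per gene leave a gene's ratio as it is and were not counted. Lsamp had a ratio of 0.337 with Slc13a1 left out of the proximal tubule limit and 0.298 without members carrying other cells' markers. Sgcz had 0.377 without Slc13a1 in the limit and 0.890 without the highest doublet scores. After thinning, where few UMIs of either gene are left, Abcb1a had 0.802 and Mki67 1.00. With 1 library per group, animal, batch and nephrectomy cannot be told apart, and low genes are limited by counts.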
